A study of Mus musculus with 12 samples.

Results

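Peritubular myoid cells are the flat contractile cells that wrap each seminiferous tubule, and 9 genes of smooth muscle contraction by which they are usually recognised were followed through 12 testis libraries. The genes were Acta2, Myh11, Cnn1, Tagln, Des, Actg2, Myl9, Mylk and Tpm2. They were chosen by symbol out of the 20788 genes in the table, all 9 had a row, and all 9 passed the filter on low counts, which kept 16388 genes.

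The libraries were poly(A)-selected RNA of whole testes from F1 male mice of 8 weeks of age, in 4 groups of 3. The strain was given as IRC mouse in the sample labels and as ICR in the methods. In the methods, the F1 males were offspring of males whose testes had been injected with lentivirus at 4 weeks of age, after mating with untreated females, whereas in the series' own description it was the F1 testes that received virus. By the methods, the lncRNA5251 knockdown group descended from a pool of viruses carrying 3 shRNAs against the long non-coding RNA lncRNA5251 in the LV3 vector, and the 3NC group from the control virus of that vector. In the same account, the lncRNA5251 overexpression group descended from virus carrying the full lncRNA5251 in the LV5 vector, and the 5NC group from that vector alone. No row of the table carries the name lncRNA5251, so its level could not be checked here, and whether the 3 libraries within a group represent different litters is not stated.

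Smooth muscle contracts when calcium-bound calmodulin activates myosin light chain kinase, which phosphorylates the regulatory light chain so that smooth muscle myosin can pull on actin filaments. Calponin, transgelin and tropomyosin sit on those filaments and tune the pull, and desmin ties the contractile apparatus to the rest of the cell. In the testis this machinery moves fluid and sperm along the tubules, and it is under the control of androgens, endothelin, oxytocin and other signals. The same genes are used by vascular smooth muscle and pericytes, so in whole tissue they do not mark 1 cell type alone. In addition, transcripts of Actg2 are known from haploid male germ cells.

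Many smooth muscle genes are driven by serum response factor, which binds the CArG box. Promoter windows from RefSeq (GRCm38.p6, 250 bases before to 50 bases after a start) were found for 6 of the 9 genes, and the strict CArG box was searched on both strands, on which its pattern reads alike. It was present in 1 of the 6, Myl9, against 535 of 32851 windows of all genes (1.63%). The 194 bases upstream of Myl9 (chr2:156775214-156775407, plus strand) are shown because they hold that box, which is printed in capitals, and the 213 bases upstream of Cnn1 (chr9:22099003-22099215, plus strand), with no strict box, because Cnn1 gave the smallest p-value of the 9 genes in the knockdown comparison.
Myl9: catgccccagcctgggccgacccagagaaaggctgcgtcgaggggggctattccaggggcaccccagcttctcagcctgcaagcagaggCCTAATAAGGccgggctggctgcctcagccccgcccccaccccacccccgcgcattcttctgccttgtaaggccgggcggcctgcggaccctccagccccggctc
Cnn1: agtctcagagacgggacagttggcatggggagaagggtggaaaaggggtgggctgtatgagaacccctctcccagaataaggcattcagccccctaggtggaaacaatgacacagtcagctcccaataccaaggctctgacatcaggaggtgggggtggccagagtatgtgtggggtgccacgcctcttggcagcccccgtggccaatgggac

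When 1 G or C was allowed among the 6 central letters of the box, a choice made after the sequences were seen, Acta2 held 2 such elements and Myl9 held 1, against 8.5% of all windows. Those of Acta2 read as follows, with the departing letter in capitals.
Acta2, chr19:34255448-34255457: ccCtatatgg
Acta2, chr19:34255398-34255407: ccttGtttgg

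A match describes letters in a window and says nothing about binding in these testes.

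The libraries held between 12719699 and 15771655 estimated reads each. In 2 of them, 3NC replicate 2 and knockdown replicate 1, the leukocyte gene Ptprc stood at 94.8 and 71.7 CPM (the read count as a share of the TMM-scaled library total), whereas it ranged from 2.12 to 6.91 CPM in the other 10, so the comparisons with 3NC were also fitted without both. Crisp1, a gene of the epididymal duct, whose wall also holds smooth muscle, ranged from 0.0665 CPM to 239 CPM. It stood at 9.86, 239 and 98.4 CPM in the 5NC libraries and at 0.197, 0.133 and 0.0793 CPM in the overexpression libraries, a log2 fold change of -9.61 (edgeR adjusted p = 0.0668, called by DESeq2 and limma), and DESeq2 called 3 further duct genes, Rnase9, Spink8 and Adam7, lower there. In 3NC Crisp1 stood at 32.5, 61.5 and 26.3 CPM and in knockdown at 13.2, 0.0665 and 0.608 CPM (log2 fold change -3.1, edgeR adjusted p = 0.764). The summed CPM of 13 epididymal and duct genes had a Pearson's r of 0.09 with the mean of the 8 genes other than Actg2, 0.33 without the 2 farthest libraries and -0.26 after centring each group. Most of that sum was Cst8 in 11 of 12 libraries. Cst8 stood at 131 to 177 CPM whatever the level of Crisp1, with an r of 0.83 with Actg2 and -0.40 with the 8 genes. The r with the 8 genes was 0.29 for Crisp1, 0.22 for Rnase9 and 0.33 each for Spink8 and Adam7. The part of duct genes in the results was not tested.

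The levels of the 9 genes were spread over more than 2 orders of magnitude. Per length of transcript, Actg2 was the highest with a mean of 190 FPKM (the deposited value per transcript length and library size) over the 12 libraries, and only 2.6% of all genes in the table were higher. Myl9 followed with 36.6 FPKM and Acta2 with 17.0 FPKM. Mylk stood at 8.48 FPKM, Tagln at 7.92 FPKM, Tpm2 at 5.63 FPKM and Myh11 at 5.56 FPKM. Cnn1, with 2.36 FPKM, and Des, with 1.37 FPKM, were the lowest. Most neighbours in this order kept their places in 11 or 12 of the 12 libraries. The exceptions were Mylk and Tagln, where Mylk was higher in 8 of 12, and Tpm2 and Myh11, where Tpm2 was higher in 5 of 12, so these 2 pairs were not separable. In the deposited values the length by which reads were divided differed between libraries by 1.36 times for Cnn1, 1.24 times for Tpm2 and 1.21 times for Acta2 (median gene 1.02), so that FPKM is used here for levels and read counts for comparisons.

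**Figure D1:**
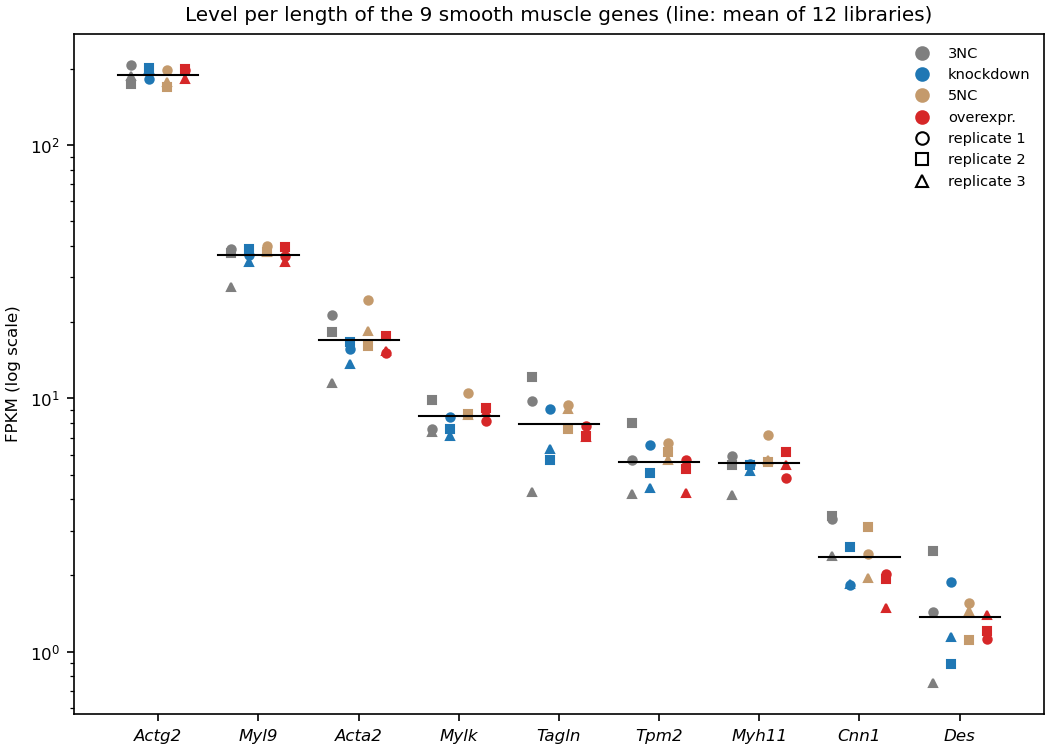
Level per length (FPKM, log axis) of the 9 genes in each of the 12 libraries, with colours for groups, symbols for replicates and a line at the mean of 12. Actg2, at 190 FPKM, stands 5.17 times above Myl9, and the lowest gene, Des, has the widest spread.

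Smooth muscle α-actin, the product of Acta2 (gene ID 11475, chr19:34241090-34255590, minus strand), is the usual stain for the peritubular layer. In the 3NC libraries Acta2 stood at 45.1, 38.5 and 28.6 CPM, and in the knockdown libraries at 32.4, 33.8 and 33.4 CPM. The knockdown values lay within the 3NC range and differed from each other by 1.045 times, whereas the controls differed by 1.58 times. The log2 fold change was -0.17 (SE 0.17, 95% interval -0.55 to 0.20, edgeR adjusted p = 0.792). Acta2 stood at 51.2, 34.5 and 40.0 CPM in the 5NC libraries and at 33.7, 39.1 and 34.8 CPM in the overexpression libraries. These groups overlapped too, and 5NC replicate 1 was the highest of all 12 libraries. Here the log2 fold change was -0.23 (SE 0.17, 95% interval -0.60 to 0.15, edgeR adjusted p = 0.663).

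Actg2 encodes the smooth muscle γ-actin (gene ID 11468, chr6:83512905-83536265, minus strand). Its 3NC values were 247.5, 192.5 and 230.4 CPM and its knockdown values 210.2, 243.7 and 242.9 CPM. Every knockdown value lay inside the control range, and the log2 fold change was 0.06 (SE 0.11, edgeR adjusted p = 0.901), with a 95% interval of the fold from 0.883 to 1.22. In the 5NC group Actg2 stood at 229.7, 194.5 and 204.7 CPM, and in the overexpression group at 238.0, 238.6 and 214.6 CPM. Only the highest control reached into the overexpression range, and the log2 fold change was 0.14 (SE 0.11, edgeR adjusted p = 0.681), with the fold between 0.934 and 1.29. Across all 12 libraries Actg2 varied by no more than 1.29 times.

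Myh11 encodes the smooth muscle myosin heavy chain, the motor of the filament (gene ID 17880, chr16:14194535-14291372, minus strand). It measured 30.3, 27.2 and 23.1 CPM in 3NC and 27.7, 27.6 and 25.8 CPM in knockdown, a log2 fold change of 0.01 (SE 0.13, edgeR adjusted p = 0.988). In 5NC it measured 34.7, 29.5 and 27.8 CPM and in overexpression 25.2, 31.0 and 28.5 CPM, a log2 fold change of -0.12 (SE 0.13, edgeR adjusted p = 0.779). The groups overlapped in both comparisons, and 3NC replicate 3 was the lowest library, as it was for Acta2.

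Myl9, the regulatory light chain that the kinase phosphorylates (gene ID 98932, chr2:156775420-156781658, plus strand), varied by 1.40 times over the 12 libraries, less than any of the 9 genes except Mylk and Actg2. It stood at 37.1, 33.3 and 27.3 CPM in 3NC and at 34.0, 38.0 and 33.9 CPM in knockdown (log2 fold change 0.11, SE 0.12, edgeR adjusted p = 0.793). The 5NC values were 37.4, 34.8 and 34.9 CPM and the overexpression values 35.3, 38.2 and 32.6 CPM (log2 fold change -0.01, SE 0.12, edgeR adjusted p = 0.982). Apart from 3NC replicate 3, all libraries lay between 32.6 and 38.2 CPM.

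Mylk encodes the myosin light chain kinase itself (gene ID 107589, chr16:34745210-35002420, plus strand), and its estimates had the narrowest intervals. It measured 58.2, 70.7 and 59.1 CPM in 3NC and 59.4, 56.4 and 55.9 CPM in knockdown. The highest knockdown value lay just above the lower pair of controls, and the log2 fold change was -0.13 (SE 0.09, edgeR adjusted p = 0.764), with the fold between 0.794 and 1.05. In 5NC it measured 70.2, 64.9 and 64.7 CPM and in overexpression 57.9, 64.3 and 64.8 CPM, a log2 fold change of -0.10 (SE 0.09, edgeR adjusted p = 0.752). The groups overlapped only by overexpression replicate 3 and the lowest control. Exons of E130310I04Rik and Gm21691 on the opposite strand cover 4.9% and 2.0% of the exonic bases of Mylk.

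Cnn1 encodes calponin, an actin-binding protein of differentiated smooth muscle (gene ID 12797, chr9:22099216-22109630, plus strand). It was the 1 gene of the 9 whose unadjusted p-value of edgeR passed 0.05 in any comparison, while with DESeq2 none of the 9 did. The 3NC libraries held 4.30, 4.60 and 3.17 CPM of Cnn1 and the knockdown libraries 2.28, 3.39 and 2.43 CPM, which rest on 36 to 74 reads per library. The group means were 4.03 ± 0.751 and 2.70 ± 0.603 CPM (SD, n = 3 each), and the groups overlapped through knockdown replicate 2 and 3NC replicate 3. The log2 fold change was -0.58 (SE 0.24, 95% interval -1.11 to -0.04) with an unadjusted p of 0.0368, and the adjusted p of edgeR was 0.764, so the difference did not pass the test. It was -0.36 without the 2 libraries rich in Ptprc reads. Against its own control, the overexpression group held 3.16, 2.80 and 2.46 CPM and 5NC 4.12, 4.15 and 2.79 CPM. The lowest control lay inside the overexpression range, and the log2 fold change was -0.39 (SE 0.24, edgeR adjusted p = 0.577).

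Transgelin, the product of Tagln (gene ID 21345, chr9:45929619-45936058, minus strand), is an early and abundant actin-bundling protein of smooth muscle. It stood at 14.2, 16.5 and 6.42 CPM in 3NC, a 2.57-fold range, and at 12.8, 8.51 and 9.45 CPM in knockdown. The knockdown values lay between those of the controls, and the log2 fold change was -0.27 (SE 0.29, 95% interval -0.89 to 0.35, edgeR adjusted p = 0.804). In 5NC Tagln stood at 13.4, 10.6 and 12.9 CPM and in overexpression at 11.5, 10.5 and 10.2 CPM (log2 fold change -0.20, SE 0.29, edgeR adjusted p = 0.858). Its values are uncertain, since exons of the antisense gene Gm48529 cover 62.4% and those of Pcsk7 5.4% of its exonic bases, both on the opposite strand, and the use of strand in counting was not stated.

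Tpm2 encodes β-tropomyosin, which lies along the actin filament (gene ID 22004, chr4:43514711-43523765, minus strand). It measured 9.66, 10.9 and 7.16 CPM in 3NC and 10.6, 8.18 and 8.04 CPM in knockdown (log2 fold change -0.05, SE 0.19, edgeR adjusted p = 0.957). The 5NC values were 10.3, 8.72 and 8.87 CPM and the overexpression values 9.93, 9.52 and 7.62 CPM (log2 fold change -0.04, SE 0.19, edgeR adjusted p = 0.963). The groups overlapped throughout.

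Desmin, the muscle intermediate filament encoded by Des (gene ID 13346, chr1:75360329-75368579, plus strand), was the most variable of the genes. It was the lowest per length of transcript, whereas in CPM Cnn1 was lower, with means over 12 libraries of 3.98 CPM for Des and 3.30 CPM for Cnn1. The values of Des are given in CPM here. It measured 4.24, 6.90 and 2.30 CPM in 3NC and 5.37, 2.66 and 3.44 CPM in knockdown. The controls thus spanned 3.00 times and enclosed every other library, and the log2 fold change was -0.23 (SE 0.36, 95% interval -1.03 to 0.57, edgeR adjusted p = 0.878). In 5NC it measured 4.49, 3.17 and 4.15 CPM and in overexpression 3.35, 3.60 and 4.13 CPM (log2 fold change -0.10, SE 0.37, edgeR adjusted p = 0.957). Exons of the antisense gene Gm15179 cover 5.9% of its exonic bases.

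**Figure D2:**
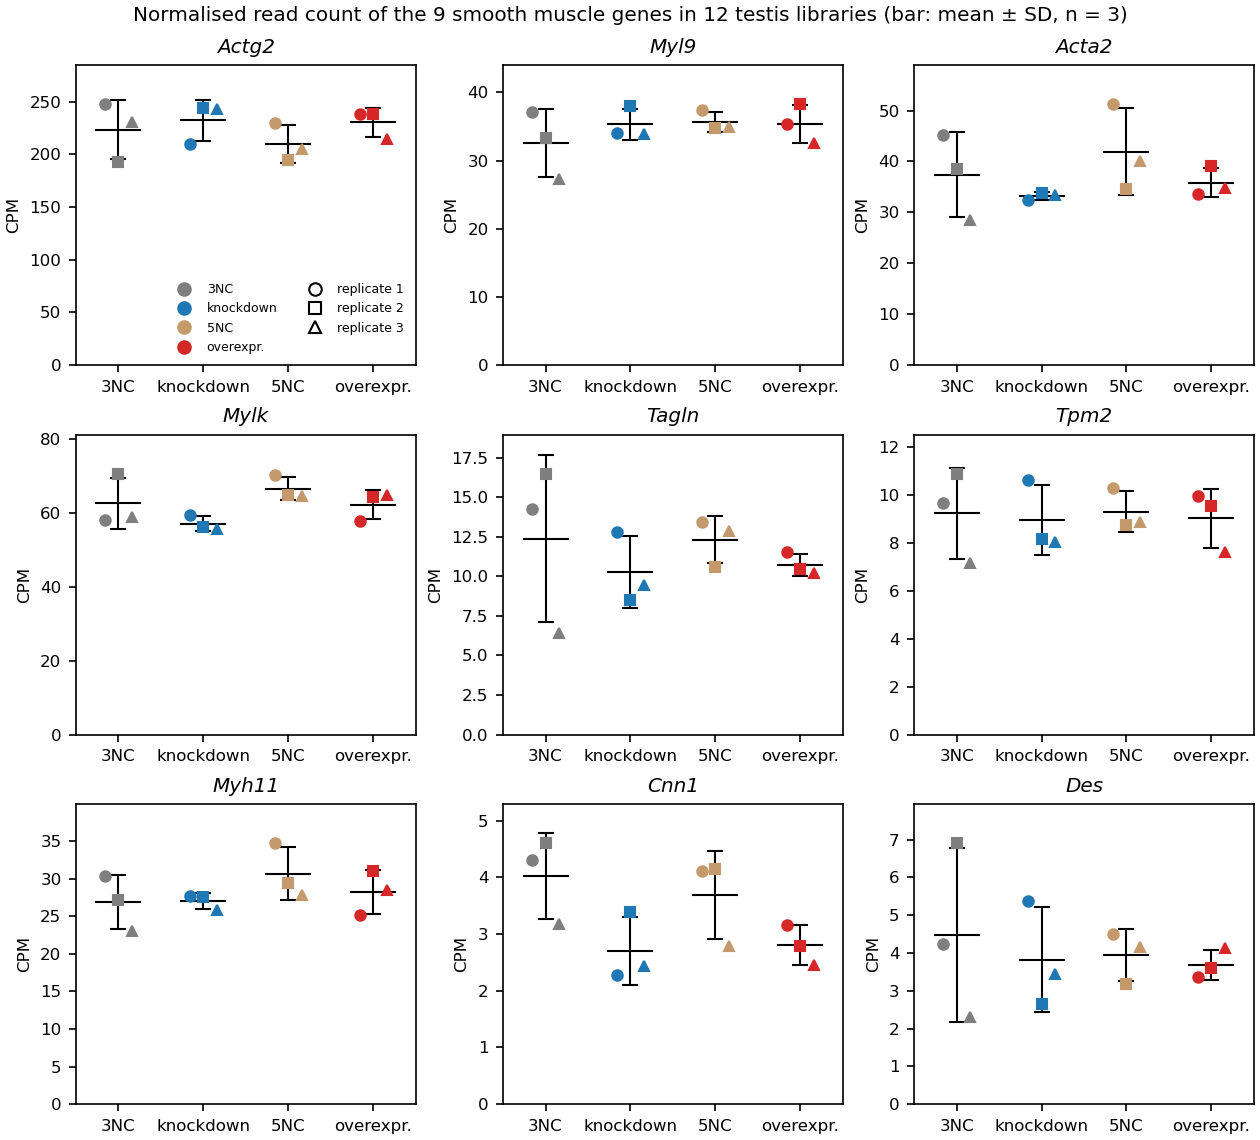
Normalised read count (CPM, axes from 0) of the 9 genes in the 12 libraries, with bars at the mean ± SD of 3 libraries per group. In no gene do the knockdown or overexpression libraries stand clear of their controls, and 3NC replicate 3 (grey triangle) is the lowest library for 6 of the 9.

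None of the 9 genes passed an adjusted p of 0.05 in the knockdown comparison, where 0.0% of the 16388 tested genes did (0 genes with edgeR, 924 or 5.64% at an unadjusted p under 0.05, and 16 genes with DESeq2). DESeq2 and limma called none of the 9 either. Of the 9, 1 had an unadjusted p under 0.05 with edgeR, which is Cnn1, and 0 had one with DESeq2. The log2 fold change was above 0 for 3 genes and below 0 for 6, with a median of -0.13, while the median of all tested genes was -0.02 and 53.2% of them lay below 0. Without the 2 libraries rich in Ptprc reads, 2 genes lay above 0 and 7 below. None of the 9 genes had knockdown libraries that did not overlap their controls, against 11.3% of all tested genes.

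In the overexpression comparison, 0 of the 9 genes passed, against 0.311% of all tested genes (51 genes). At an unadjusted p under 0.05 the counts were 0 of 9 and 11.9%. The log2 fold change lay above 0 for Actg2 alone and below 0 for the other 8 genes, with a median of -0.10, against -0.01 for all tested genes, of which 51.7% lay below 0. That split rested on 5NC replicate 1, without which 4 genes lay above 0 and 5 below, and on overexpression replicate 3, without which the split was 3 and 6. No gene of the 9 had groups that did not overlap, against 21.3% of all tested genes.

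The control groups of the 2 vectors were compared as well, since the 5NC group served both here and as the control of overexpression. None of the 9 genes passed, against 0.128% of all tested genes (21 genes), none had an unadjusted p under 0.05 (10.8% of all genes did), and none had groups that did not overlap (13.0% of all genes did). Log2 fold changes of 5NC against 3NC ran from -0.19 (Des) to 0.19 (Myh11, edgeR adjusted p = 0.607), with 5 genes above 0 and 4 below. Without the 2 libraries rich in Ptprc reads, 7 lay above 0 and 2 below. A test of whether the knockdown effect differed from the overexpression effect passed for 0 of the 9 genes and 0.0244% of all tested genes (4 genes), with log2 differences from -0.18 (Cnn1) to 0.13 (Myh11). At an unadjusted p under 0.05 these counts were 0 of 9 and 4.63%.

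These intervals set what the 3 libraries per group could show. For Mylk, Actg2, Myl9 and Myh11 a fold under 0.76 or over 1.29 lay outside the 95% interval in both comparisons with a control virus, whereas for Des the intervals reached from 0.491 to 1.64. In bulk tissue, fewer cells of a type and less RNA per cell cannot be told apart.

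**Figure D3:**
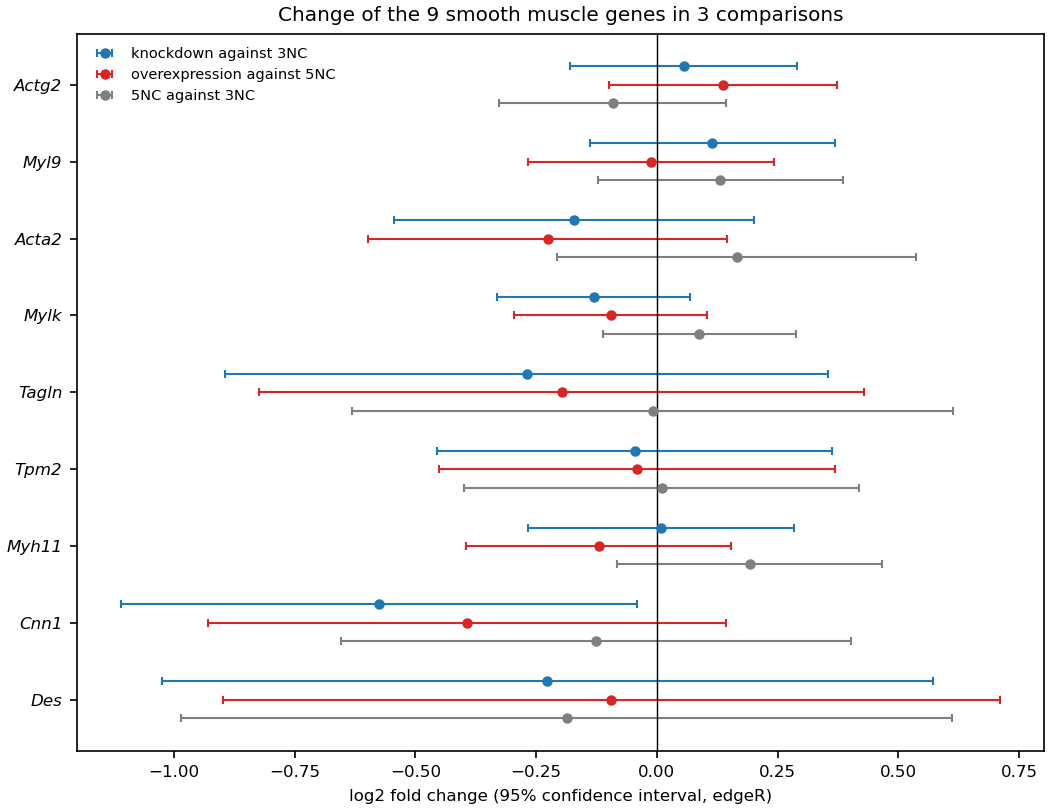
Log2 fold changes of the 9 genes with 95% confidence intervals from edgeR in 3 comparisons, with genes ordered by level. Every interval includes 0 except that of Cnn1 in knockdown against 3NC, -1.11 to -0.04, whose adjusted p was 0.764.

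The summed CPM of the 8 genes other than Actg2 was 203.2, 208.4 and 157.1 in 3NC, 184.6, 178.5 and 172.3 in knockdown, 225.9, 190.4 and 196.1 in 5NC, and 180.0, 199.0 and 185.2 in overexpression. The lowest and the highest library were thus both controls. 3NC replicate 2 was the highest library for 5 genes and 3NC replicate 3 the lowest for 6, although both came from the same group.

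Among those 8 genes the levels moved together from library to library. All 28 pairs had a Pearson's r above 0 over the 12 libraries (log2 CPM), with a median of 0.50 and a range from 0.07 (Myl9 with Mylk) to 0.90 (Tagln with Des, Spearman's rho 0.84). Tagln with Tpm2 reached 0.86 (rho 0.85) and Acta2 with Myh11 0.85 (rho 0.79). The pairs with Tagln carry the uncertainty of its values given above, and Des with Tpm2 stood at 0.76 (rho 0.76). After each group was centred on its own mean, the median was again 0.50. Without 3NC replicate 3 and 5NC replicate 1, which lay farthest from the middle, the median was 0.31 and 23 of 28 pairs remained above 0, so the covariation rested in part on those libraries. Without the 2 libraries rich in Ptprc reads it was 0.63, with 28 of 28 above 0. The values of a library share its depth, scaling and tissue piece, and the 12 points are libraries of 4 groups, so these correlations are descriptions only.

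**Figure D4:**
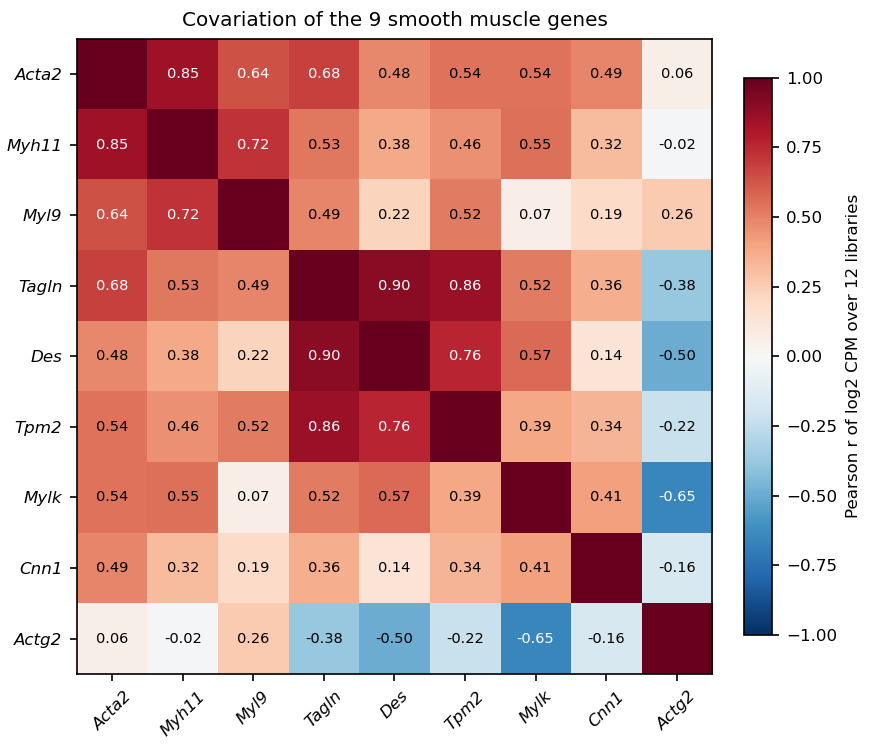
Pearson's r of log2 CPM over 12 libraries for each pair of the 9 genes, red above 0 and blue below. The block of Tagln, Des and Tpm2 (0.76 to 0.90) and the pair Acta2 and Myh11 (0.85) are the reddest cells, and Actg2 is blue or pale against the other genes.

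Actg2 did not join them. Its r with the other 8 genes had a median of -0.19 and was below 0 for 6 of the 8, down to -0.65 with Mylk (rho -0.80). Without the libraries rich in Ptprc reads the median was -0.06 and 5 of the 8 lay below 0. Its ratio to Acta2 in normalised read count ran from 4.49 in 5NC replicate 1 to 8.06 in 3NC replicate 3. Instead it followed the sum of the germ cell genes. With the summed CPM of 16 germ cell genes r was 0.93 (rho 0.87), 0.90 without 3NC replicate 2 and 5NC replicate 2, the libraries farthest from the middle of Actg2, 0.97 after centring each group, and 0.94 without the libraries rich in Ptprc reads. The sum was carried by 7 genes of spermatids, the protamines Prm1 and Prm2, the transition proteins Tnp1 and Tnp2, the outer dense fibre genes Odf1 and Odf2 and the acrosomal gene Acrv1, which made up 85.2% to 89.8% of it. Each of the 7 had an r with Actg2 above 0 (0.51 to 0.94, the highest for Odf2), while the 4 genes of meiotic entry and recombination, Stra8, Spo11, Sycp1 and Sycp3, were all below 0 (-0.59 to -0.41). These stages were grouped after the values were seen, and the other 5 genes of the list did not divide by stage, with 0.56 for Piwil1 of spermatocytes and round spermatids, 0.12 for Pgk2 of late germ cells, 0.36 and -0.07 for the spermatogonial genes Zbtb16 and Kit, and -0.34 for Ddx4. Thus Actg2 did not vary with the other 8 genes over these libraries, and which cells its transcripts came from was not tested.

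**Figure D5:**
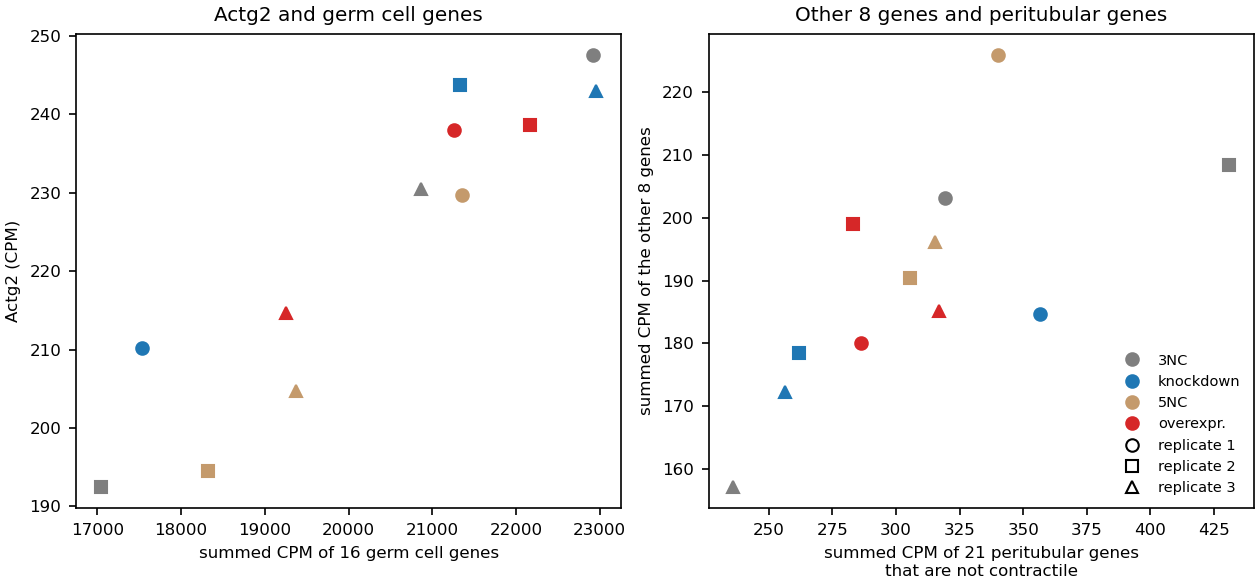
Left, Actg2 (CPM) against the summed CPM of 16 germ cell genes, r = 0.93; right, the summed CPM of the other 8 genes against that of 21 peritubular genes that are not contractile, r = 0.79 with the 8 genes taken as the mean of standardised log2 CPM. Each point is 1 of 12 libraries, coloured by group, and 3NC replicate 3 is lowest on both axes at right.

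The other 8 genes were set beside lists of the cell types a piece of testis can hold, each taken as summed CPM and compared with the mean standardised log2 CPM of the 8. Over all 12 libraries the r was 0.79 for 21 peritubular myoid genes that are not contractile (rho 0.74), 0.79 for 9 Leydig cell genes (rho 0.73), 0.77 for 14 genes of pericytes and vascular smooth muscle (rho 0.79), 0.63 for fibroblast and capsule genes, 0.55 for endothelial genes and 0.45 for mesothelial genes. Without the 2 farthest libraries these were 0.76, 0.67, 0.62, 0.73, 0.46 and 0.64, and after centring each group 0.80, 0.84, 0.74, 0.62, 0.84 and 0.28, so the order of the lists depended on the choice and was not tested. In the same order of 3 values, the r was 0.31, -0.04 and 0.61 for Sertoli cell genes, 0.27, 0.36 and 0.50 for macrophage genes and -0.20, -0.36 and -0.13 for germ cell genes. Among the most abundant pericyte genes it was 0.14 for Ndufa4l2, -0.82 for Pln, 0.72 for Rgs5 and 0.71 for Mcam. The Ptprc-rich 3NC replicate 2 had the highest peritubular, fibroblast and capsule, endothelial and mesothelial sums. Without both Ptprc-rich libraries the r was 0.87 for the peritubular myoid genes. The other lists of this paragraph were not compared that way.

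No marker gene of these lists passed the test of edgeR in the knockdown comparison. An unadjusted p under 0.05 was seen for 1 of 20 peritubular genes, 0 of 13 pericyte genes, 0 of 11 endothelial genes, 3 of 9 Leydig cell genes and 5 of 12 fibroblast and capsule genes, and limma gave 1 in place of the 5. It was also seen for 4 of 6 epididymal and duct genes and 2 of 6 mesothelial genes, all lower (3 and 1 genes with DESeq2). The counts were 1 of 13 Sertoli cell, 1 of 10 striated muscle, 0 of 11 macrophage and 0 of 16 germ cell genes. Among all tested genes the share was 5.64%. Of the 9 Leydig cell genes 6 lay below 0 in knockdown and 3 above, and the 3 with an unadjusted p under 0.05 were Lhcgr, the receptor of luteinising hormone (log2 fold change -1.20), Cyp17a1 (-1.17) and Star (-0.97) of steroid synthesis, with an edgeR adjusted p of 0.764 each. Of the 12 fibroblast and capsule genes 10 lay below 0. Among the 5 was Col1a1 (-1.75, edgeR adjusted p = 0.764), which reached 161.8 CPM in 3NC replicate 2, one of the libraries rich in Ptprc reads, and 14.4 to 36.0 CPM in the other two. The summed CPM of the Leydig cell genes ranged from 1109 to 2157 in 3NC and from 1153 to 1508 in knockdown, and that of the fibroblast and capsule genes from 216 to 887 and from 200 to 334. In the overexpression comparison edgeR called 1 gene of all the lists, the germ cell gene Spo11, which was lower (log2 fold change -0.51, edgeR adjusted p = 0.0452), as DESeq2 and limma did. Its group means were 44.7 CPM in 3NC, 40.5 CPM in knockdown, 61.7 CPM in 5NC and 43.3 CPM in overexpression. DESeq2 also called Spo11 higher in 5NC against 3NC (edgeR log2 fold change 0.46, edgeR adjusted p = 0.0825). The part of the Leydig cell, fibroblast, duct and mesothelial genes in the values of Cnn1, Oxtr and Gucy1a1 was not tested. Of 25 skeletal and cardiac muscle genes, 13 stayed under 1 CPM in every library and 10 passed the filter on low counts, and their sum was between 26.6 and 52.2 CPM. Actn2, with group means from 8.83 to 22.7 CPM, Ttn (8.65 to 9.76 CPM) and Actn3 (3.47 to 7.32 CPM) were the highest, and edgeR called none of the 10, whereas DESeq2 called Actn3 higher in overexpression and Actn2 in the difference of effects. The r of the sum with the 8 genes was -0.06.

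Of all genes that are not members, those whose pattern over the 12 libraries was most like the mean of the 9 were Sod3 and Fads6 (r = 0.95), Cd151, Rai1 and Pcolce (0.94), Hsd17b10 and Slc25a22 (0.93) and Pld3 (0.92). Pcolce, for example, ranged from 43.6 to 104 CPM.

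The rest of the contraction pathway held no gene that passed the test of edgeR. Of 46 further contraction genes 45 were tested, and 0 passed in each direction in all 4 tests, while DESeq2 called 1 of them, Synm, lower in overexpression. In the knockdown comparison 18 lay above 0 and 27 below, and 0 and 2 respectively had an unadjusted p under 0.05, against 5.64% of all tested genes. The smallest p-values belonged to Ppp1r12b, the myosin phosphatase subunit (log2 fold change 0.22, SE 0.10, edgeR adjusted p = 0.764), and to Gucy1a1, a subunit of the nitric oxide receptor that relaxes smooth muscle. Gucy1a1 stood at 7.28, 7.89 and 5.81 CPM in 3NC and at 4.80, 4.32 and 3.17 CPM in knockdown, groups that did not overlap, with a log2 fold change of -0.77 (SE 0.20, edgeR adjusted p = 0.764). Groups did not overlap for 11.3% of all tested genes in this comparison. In the overexpression comparison 21 lay above 0 and 24 below, 3 and 2 of them with an unadjusted p under 0.05, against 11.9% of all tested genes. The smallest p-value of any contraction gene was that of Synm, the desmin partner synemin, with 46.9, 33.6 and 40.0 CPM in 5NC and 25.1, 26.6 and 26.3 CPM in overexpression (log2 fold change -0.63, SE 0.13, edgeR adjusted p = 0.0801), and Myl6b had the smallest of those above 0 (0.52, edgeR adjusted p = 0.337). In 5NC against 3NC, Synm had the smallest p-value of those above 0 (0.42, edgeR adjusted p = 0.294) and Prkg1, the cGMP-dependent kinase, the smallest of those below 0 (-0.50, edgeR adjusted p = 0.272). Smtnl2 (-1.13) and Synm (0.33) led the difference of the 2 effects, with edgeR adjusted p = 1.

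Smoothelin (Smtn), caldesmon (Cald1), leiomodin (Lmod1) and synaptopodin 2 (Synpo2), which accompany the contractile filaments, had log2 fold changes of -0.05, -0.30, -0.17 and -0.46 in knockdown and of 0.04, -0.18, 0.05 and -0.47 in overexpression. None of these passed, and the edgeR adjusted p-values were 0.766 or more in the first and 0.690 or more in the second comparison. Smtn had an r of 0.82 with the 8 genes and, like 6 of the 9 genes, was lowest in 3NC replicate 3, at 2.97 CPM. The r was lower for Cald1 (0.32), Synpo2 (0.30) and Lmod1 (0.21).

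Receptors that make the peritubular layer contract were mostly scarce. The list of 18 genes holds 17 receptors and the ligand endothelin-1 (Edn1), and 8 of the 18, Edn1 included, passed the filter on low counts, while 9 stayed under 1 CPM in every library. The oxytocin receptor Oxtr stood at 17.3, 15.3 and 6.35 CPM in 3NC and at 5.94, 8.04 and 5.27 CPM in knockdown, with overlap through 3NC replicate 3 (log2 fold change -1.02, SE 0.36, edgeR adjusted p = 0.764). The endothelin receptor Ednra had the smallest p-value of those above 0 (0.46, edgeR adjusted p = 0.764). In the overexpression comparison these places went to the angiotensin receptors Agtr1a (-0.54, SE 0.16, edgeR adjusted p = 0.194) and Agtr1b (0.62, edgeR adjusted p = 0.618). Agtr1a stood at 27.6, 25.4 and 26.8 CPM in 5NC and at 17.7, 18.9 and 18.3 CPM in overexpression, without overlap, as for 21.3% of all tested genes. Agtr1a (log2 fold change 0.39) and Oxtr (-0.41) led 5NC against 3NC, and they also led the difference of effects, with 0.62 and -1.14, and no gene of the list passed in either test. At an unadjusted p under 0.05 there was 1 gene in each of the first 3 comparisons and 2 in the difference of effects, and DESeq2 and limma called none.

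Among 22 regulators around myocardin and serum response factor, all tested, 0 passed in any comparison with edgeR, and 2, 3, 2 and 1 had an unadjusted p under 0.05 in the knockdown, in overexpression, in 5NC against 3NC and in the difference of effects. Of all tested genes 5.64%, 11.9%, 10.8% and 4.63% did, in the same order. DESeq2 called 2 of them in overexpression, Csrp2 lower and Klf4 higher. Myocd, the master coactivator of smooth muscle genes, was close to the floor at 0.598 to 2.09 CPM. Srf stood at 42.7, 34.2 and 33.1 CPM in 3NC and at 48.1, 50.7 and 49.6 CPM in knockdown, without overlap (as for 11.3% of all tested genes), with a log2 fold change of 0.43 (SE 0.18, edgeR adjusted p = 0.764). Klf5 had the smallest p-value above 0 (0.45, edgeR adjusted p = 0.764) and Myocd the smallest below 0 (-0.69, edgeR adjusted p = 0.764). In overexpression the smallest p-values belonged to Csrp2, a LIM protein of smooth muscle (-0.70, SE 0.18, edgeR adjusted p = 0.158), and Klf4, a repressor of the contractile program that is also a spermatid gene (0.58, SE 0.16, edgeR adjusted p = 0.167). The same genes led 5NC against 3NC with the signs turned, Csrp2 at 0.42 and Klf4 at -0.43, and both comparisons use the 5NC libraries. In the difference of effects Csrp2 (0.62) and Mkl2 (-0.26) came first. Csrp1 showed log2 fold changes of -0.13 and -0.21 in knockdown and overexpression, and its r with the 8 genes was 0.72. The other regulators named here had an r of 0.13 (Csrp2), 0.01 (Srf), -0.07 (Mkl2), -0.40 (Myocd), -0.52 (Klf4) and -0.53 (Klf5). For the summed CPM of the 22 regulators it was -0.03, and 0.56 after centring each group.

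The 21 peritubular genes that are not contractile, for receptors, matrix and growth factors, gave 20 tested genes, 0 of which passed in any comparison with edgeR, while 1, 2, 2 and 3 had an unadjusted p under 0.05 in the 4 tests in the same order. Of all tested genes 5.64%, 11.9%, 10.8% and 4.63% did. DESeq2 called 1 of them, Lama2, lower in overexpression and higher in 5NC against 3NC. In the knockdown 5 lay above 0 and 15 below, and the smallest p-value below 0 was that of Nid1, a basement membrane linker (-0.40, SE 0.13, edgeR adjusted p = 0.764). In the overexpression 7 lay above 0 and 13 below, led by Igfbp5 (1.63, edgeR adjusted p = 0.281), with 1.56, 1.48 and 0.787 CPM in 5NC and 2.10, 2.06 and 7.85 CPM in overexpression, so that overexpression replicate 3 stood far above the rest, and by Lama2, a laminin chain of the basement membrane (-0.31, SE 0.08, edgeR adjusted p = 0.144). Lama2 stood at 29.4, 31.9 and 31.5 CPM in 3NC, at 40.0, 44.5 and 42.5 CPM in 5NC and at 33.8, 33.1 and 35.4 CPM in overexpression. The 5NC libraries were thus above the other groups listed without overlap, and against 3NC the log2 fold change was 0.45 (SE 0.08, edgeR adjusted p = 0.0625). Of all tested genes, 21.3% did not overlap between overexpression and 5NC, and 13.0% between 5NC and 3NC. Igfbp5 had the smallest p-value below 0 in that comparison (-1.23, edgeR adjusted p = 0.466), and both genes led the difference of effects, Lama2 with 0.26 and Igfbp5 with -2.62 (edgeR adjusted p = 0.888).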

How the data were processed

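Whole testis RNA of 12 libraries was sequenced by the authors after poly(A) selection, reads were mapped to reference genes with SOAPaligner (build mm10 in the submitters' processing notes), and per gene an estimated count and an FPKM value (RPKM in the methods) were deposited for each library. How reads were shared among transcripts, and whether strand was used, is not given in the sources read; 17.3% of genes hold fractional estimated counts, which were rounded to whole numbers. A further 18 columns in the table belong to samples of other groups and were set aside.

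Libraries were grouped by their labels. A quasi-likelihood model of edgeR 4.0.16 (R 4.3.3) was fitted to all 12 libraries, with TMM scaling, filterByExpr and no covariate, with Benjamini-Hochberg adjustment over 16388 genes (4400 were filtered out). The SE is the fold change over the root of F, and intervals cover 95%. The typical biological coefficient of variation was 22.9%. Alternatives used DESeq2 1.42.0 and limma 3.58.1, the latter also on log2(FPKM + 0.1). Since separate animals are not stated, a p-value reflects library-to-library spread only, part of which may be technical. CPM depends on all other genes of a library.

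The 9 genes and all lists were chosen with earlier results of these data known. Named list genes were, for each list and test, the gene with the smallest p in each direction, plus Smtn, Cald1, Lmod1, Synpo2, Myocd, Srf and Csrp1, and the 8 genes most correlated with the mean of the 9. Of the genes so named, 1 is not reported here. Marker genes of other cell types were named after their values were seen. Gene positions and overlaps came from GENCODE vM21 and promoters from RefSeq. Scripts were tested on simulated data.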

Additional observations from a re-analysis of the deposited data

How the results depend on the processing

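None of the 9 genes passed the test under any alternative in any comparison, and RLE size factors, no filter on low counts and DESeq2 turned the sign of none of their fold changes. The number of genes called over the whole table moved, from 0 to 16 with DESeq2 in the knockdown comparison. From 51 in the overexpression comparison it moved to 21 with the replicate block, 328 with DESeq2, 82 with limma on log2(FPKM + 0.1), 107 with only the groups compared and 5 at an adjusted p of 0.001 and a log2 fold change of 1. From 21 in 5NC against 3NC it moved to 5, 173, 7 and 3 with the replicate block, DESeq2, only the groups compared and those stricter thresholds, and to 45 without the Ptprc-rich libraries. From 4 in the difference of effects it moved to 2, 42 and 2 with the block, DESeq2 and the stricter thresholds. Leaving out 1 library gave 0 to 12, 9 to 49, 3 to 35 and 2 to 10 calls. Replicate numbers did not pair the libraries (same-number r from -0.57 to 0.33 across group pairs, and libraries did not always correlate best with their own number), and the block called none of the 9 genes.

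Signs turned for log2 fold changes near 0 and for some larger ones, and the cause was not tested. The larger ones included Des in knockdown (-0.23) and in 5NC against 3NC (-0.19), and Cnn1 in the difference of effects (-0.18). Without both Ptprc-rich libraries, Des and Tagln in 5NC against 3NC became 0.27 and 0.25, Myh11 in knockdown -0.001, and Cnn1 and Mylk in the difference of effects 0.033 each. Tagln in 5NC against 3NC became 0.034 with the replicate block, 0.093 with limma on log2 CPM and 0.12 on FPKM. In the difference of effects Tagln became 0.01 with limma on log2 CPM and 0.039 on FPKM, and Tpm2 became 0.009 with the block, 0.012 with limma on log2 CPM and 0.17 on FPKM. Leaving out 1 library gave these ranges. In knockdown, Actg2 ran from -0.044 to 0.14, Des from -0.55 to 0.23, Myh11 from -0.077 to 0.11 and Tpm2 from -0.19 to 0.086, with the ends set by 3NC libraries except for the lower end of Des, which came without knockdown replicate 1. In overexpression, Des ran from -0.23 to 0.01, Myl9 from -0.065 to 0.052 and Tpm2 from -0.11 to 0.074. In 5NC against 3NC, Acta2 ran from -0.012 to 0.33, Cnn1 from -0.26 to 0.03, Des from -0.49 to 0.27, Tagln from -0.31 to 0.25 and Tpm2 from -0.13 to 0.14. In the difference of effects, Acta2 ran from -0.13 to 0.22, Actg2 from -0.18 to 0.00, Des from -0.46 to 0.32, Mylk from -0.088 to 0.058, Tagln from -0.38 to 0.19 and Tpm2 from -0.15 to 0.13. For Tagln, Des and Tpm2 in 5NC against 3NC, 3NC replicates 2 and 3 set the upper and lower ends. Cnn1 and Des stood under 10 CPM in every library, and the part of depth in their spread was not tested.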

Other observations

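Chosen after its values were seen, the pattern of Actg2 was also compared with that of every other tested gene over the 12 libraries. The most similar genes were Tsga10ip (r = 0.99), Usp2, Cep295nl, Samd4 and Tssk2 (0.98), and 1700016H13Rik, Spag4 and Ccdc187 (0.97). Tssk2 is a kinase of elongating spermatids and Spag4 a protein of the spermatid nuclear envelope. Their mean levels ran from 151 CPM (Ccdc187) to 516 CPM (Usp2), beside 224 CPM for Actg2. The summed CPM of the 46 further contraction genes, which include the broadly expressed calmodulins and actin regulators, had an r of -0.96 with Actg2 (rho -0.94, and -0.95 after centring each group) and of 0.45 with the other 8 genes. The points are libraries that share depth and scaling, and the cause of this relation was not tested.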
